A study of Mus musculus with 6 samples.

Results

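The genes described here encode collagens, laminins, other proteins of the extracellular matrix, the proteases that cut it with their inhibitors, and markers of hepatic stellate cells. They were chosen by symbol: all probe sets of the array paired with 1 of 38 listed genes were taken, which gave 83 probe sets of the 45037 on the array and 38 of 18193 genes. Expression was measured in liver RNA of 6 untreated females aged 8 weeks, 3 of the inbred strain SM/J (SM) and 3 of the inbred strain NZB/BinJ (NZB), on 1 array per mouse. All mice were weaned onto chow at 3 weeks, fasted for 4 hours and had the liver perfused with 50 mL of saline before it was frozen. By the labels the replicates were separate mice, and strain is the one named difference between the groups. The series asks how liver expression differs between the strains.

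In the healthy liver a thin matrix lies between hepatocytes and the sinusoidal endothelium, and it is made of type IV collagen, laminins, nidogen and fibronectin, with fibrillar collagens mainly around portal tracts and central veins. Stellate cells sit in that space, store retinol as esters, and on injury become contractile cells that deposit fibrillar collagen. Transforming growth factor beta is the main signal for this change, and tissue inhibitors of metalloproteinases hold back the proteases that remove matrix.

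Values are log2 expression, differences are NZB minus SM with their standard error (SE) from limma. A call of higher or lower stands for a Benjamini-Hochberg adjusted p, over all genes, under 0.05. A gene is represented by its brightest probe set. A level is compared between mice only, never between genes. The arrays had medians of 6.60 to 6.66 and correlated at 0.995 to 0.997 within a strain and at 0.985 to 0.987 between strains. On a probe set of Xist, a transcript of the inactive X, SM replicate 2 read 7.32, against 12.84 and 12.91 in the other SM mice and 12.60 to 12.66 in the NZB mice. Its readings for the Y-linked genes Eif2s3y, Uty and Kdm5d were at most 5.40. SM replicate 2 therefore stood apart from its label's group in this gene, and counts of called genes are given with and without it where they differed. The highest reading for those Y-linked genes on any array, 5.67, served as a background level. Olfactory receptor genes, on 44 probe sets, had a median of 5.68 and a 95th percentile of 7.32, so a reading between 5.67 and 7.32 can come from a probe set with little specific signal. All 38 genes had a mean above 5.67, and 26 had one above 7.32. Hepatocyte markers, the check of the labelled tissue, averaged 14.07 to 14.14 per array, near the highest value of any probe set.

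The test called 6 of the 38 genes higher in NZB and 2 lower, and it called 30 neither way. The higher ones were Col4a1, Col4a2, Col5a2, Timp2, Vim and Tgfb1, and the lower ones were Timp3 and Ecm1. These 8 are 21.1% of the list, against 21.0% of all genes, so the list as a whole held no more called genes than the array did. By direction, 15.8% of the list was higher, against 8.47% of all genes, and 5.26% was lower, against 12.6%. That background split depended on scaling: 40.3% of all calls were higher in the values as deposited, 30.3% once the medians of the arrays had been aligned and 47.5% after quantile normalization. Within the 38 genes the counts were 6 higher and 2 lower as deposited and after quantile normalization, and 4 and 2 with aligned medians. The median difference was 0.036 over the list and 0.021 over all genes, and the median size of a difference was 0.16 and 0.12. None of the 38 differed by 2-fold, and the largest difference was 1.63-fold. Of the 30 genes that did not pass, 23 had a 95% interval that stayed within 0.5 of 0 on the log2 scale. The widest interval among them, that of Col3a1, reached 0.99.

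**Figure D1:**
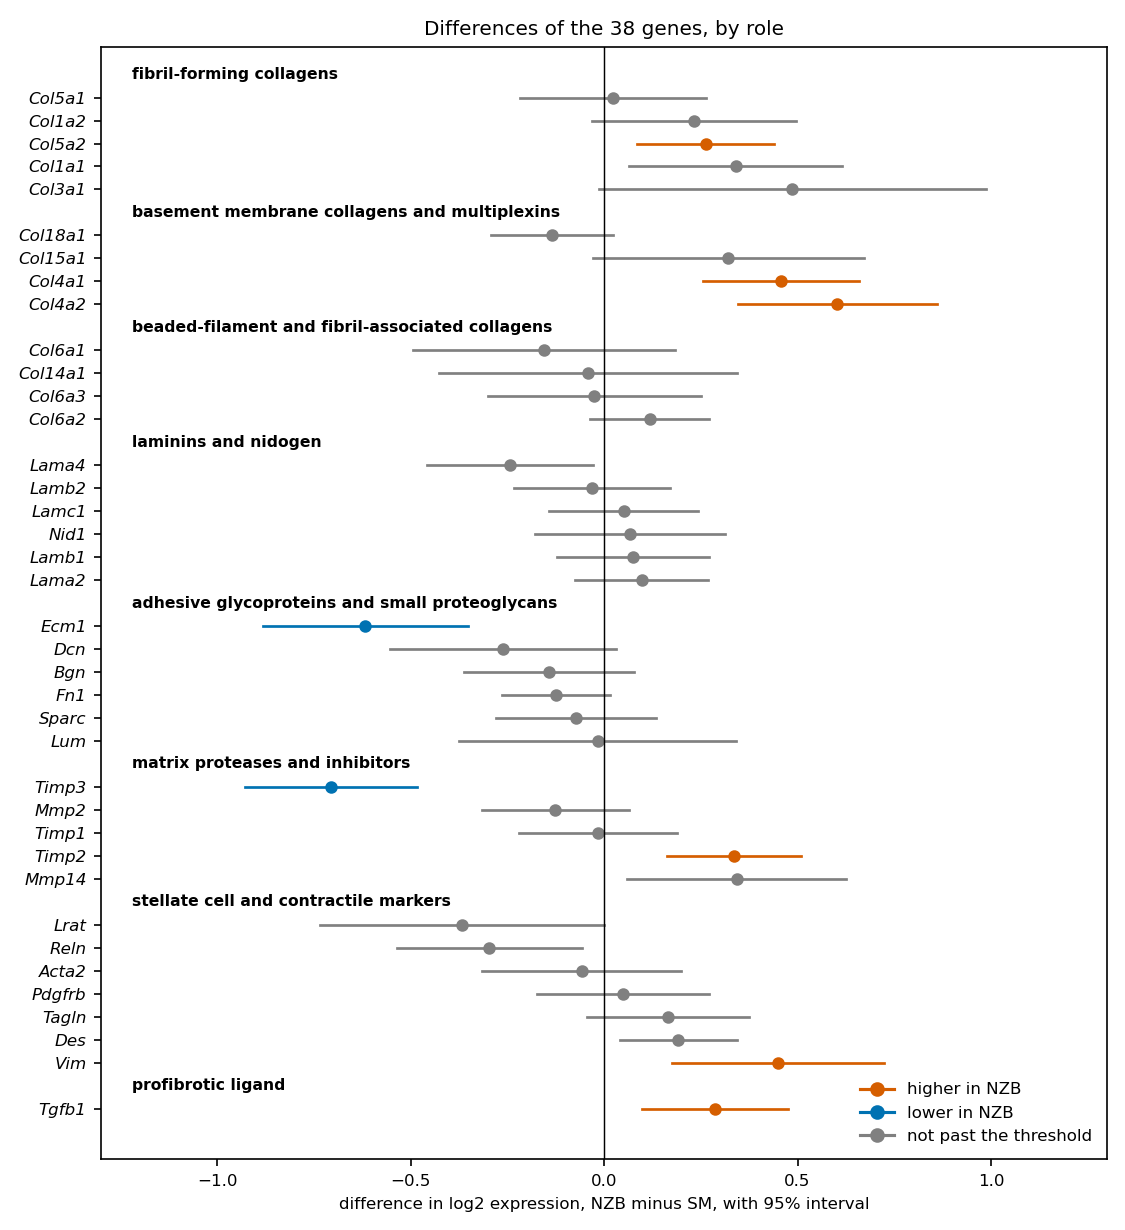
Difference in log2 expression (NZB minus SM, horizontal axis) of the 38 genes, grouped by role, with bars for the 95% interval of the limma fit (3 mice per strain). The 6 genes called higher are orange, the 2 called lower are blue, and the 30 others are grey.

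The readings of the 2 strains did not overlap in 14 of the 38 genes, or 36.8%, where the share over all genes was 39.4%. They include the 8 called genes and, without a call, Mmp14 and Des, whose NZB arrays were the higher ones, and Lama4, Fn1, Dcn and Reln, whose NZB arrays were the lower ones.

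Col4a1 and Col4a2 were both higher in NZB, and no other collagen of the chosen list but Col5a2 was called. They encode the alpha chains that assemble into the common type IV collagen network. Col4a1 read 8.63, 8.46 and 8.62 in the SM mice and 9.09, 8.84 and 9.14 in the NZB mice. Every NZB mouse was above every SM mouse, and the gene was 1.37-fold higher in NZB (0.46, SE 0.090, adjusted p = 0.00679). Its other probe set differed by 0.29 and did not pass the test over all probe sets (adjusted p = 0.0599). Col4a2 read 7.91, 7.62 and 7.63 in SM and 8.45, 8.09 and 8.43 in NZB. It was 1.52-fold higher (0.60, SE 0.11, adjusted p = 0.00558). Both genes were also called in all 15 alternatives to the reported fit. Of these, the fit without SM replicate 2 gave differences of 0.40 (adjusted p = 0.0342) and 0.55 (adjusted p = 0.0295). In both genes NZB replicate 2 was the lowest of the NZB mice.

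The pair is known to lie head to head and to be transcribed in opposite directions from a common control region, so their promoter windows are shown together. Each window runs from 250 bases before to 50 after a start site in the RefSeq annotation of assembly GRCm38.p6, 5′ to 3′ on the strand of its gene. The Col4a1 window is chr8:11312777-11313076 on the minus strand and the Col4a2 window is chr8:11312555-11312854 on the plus strand. Capitals mark the 78 bases, chr8:11312777-11312854, that both windows hold, read from opposite strands.
Col4a1: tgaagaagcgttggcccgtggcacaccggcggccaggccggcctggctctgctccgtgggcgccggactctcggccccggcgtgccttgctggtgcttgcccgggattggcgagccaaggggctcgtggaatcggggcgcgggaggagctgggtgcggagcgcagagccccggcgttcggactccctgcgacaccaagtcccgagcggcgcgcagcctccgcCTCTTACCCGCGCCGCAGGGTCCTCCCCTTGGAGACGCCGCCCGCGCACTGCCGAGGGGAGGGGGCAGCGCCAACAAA
Col4a2: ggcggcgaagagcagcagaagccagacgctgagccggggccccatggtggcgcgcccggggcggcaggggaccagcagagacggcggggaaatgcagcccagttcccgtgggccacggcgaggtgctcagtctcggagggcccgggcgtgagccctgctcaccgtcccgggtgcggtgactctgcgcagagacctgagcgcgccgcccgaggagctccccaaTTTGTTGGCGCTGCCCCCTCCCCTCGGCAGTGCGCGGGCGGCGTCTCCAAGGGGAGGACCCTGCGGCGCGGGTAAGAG
A GC box, searched as GGGCGG on both strands, matched 1 time in the Col4a1 window and 3 times in the Col4a2 window, and 1 match lay in the shared bases. At least 1 such match was found in 35.7% of all 32851 windows of this length. CCAAT on either strand matched 1 time in each window, never wholly within the shared bases, and was present in 37.4% of all windows. TATAAA matched in neither and was present in 13.6%. The arrays carry no measurement at these bases, so the sequences describe where the 2 genes start and nothing about why both were higher.

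The multiplexins Col15a1 and Col18a1, which link basement membranes to the tissue around them and release the fragments restin and endostatin, did not pass the test. Col18a1, which hepatocytes make, read 12.64 to 12.81 in SM and 12.52 to 12.66 in NZB (-0.13, SE 0.070, adjusted p = 0.212). Col15a1 read 7.33 to 7.56 in SM and 7.44, 8.15 and 7.65 in NZB (0.32, SE 0.16, adjusted p = 0.180), and NZB replicate 2, the lowest NZB mouse for Col4a1 and Col4a2, was the highest here.

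The fibril-forming collagens Col1a1, Col1a2 and Col3a1, the bulk of scar collagen, did not pass the test, and their readings in SM were spread more widely than in NZB. Col1a1 read 7.07, 6.61 and 6.56 in SM and 7.07, 7.02 and 7.16 in NZB (0.34, SE 0.12, adjusted p = 0.0805). Col1a2 read 8.81, 8.31 and 8.50 in SM and 8.75, 8.68 and 8.88 in NZB (0.23, SE 0.12, adjusted p = 0.196). Col3a1 read 9.11, 8.15 and 8.36 in SM and 8.92, 8.84 and 9.33 in NZB (0.49, SE 0.22, adjusted p = 0.155). In all 3 genes SM replicate 1 lay within the NZB range, while SM replicates 2 and 3 lay below every NZB mouse. Without SM replicate 1 the differences were 0.50 (adjusted p = 0.00242), 0.37 (adjusted p = 0.0228) and 0.77 (adjusted p = 0.00685), and all 3 genes were then called higher in NZB. Without SM replicate 2 they were 0.27, 0.12 and 0.29, with adjusted p of 0.240, 0.531 and 0.433. The labels give no ground for leaving out SM replicate 1, and the fit with all 6 mice is the one reported. The brightest probe sets of Col1a2 and Col3a1 carry the suffix _a_at. With probe sets so marked left out, the 2 genes differed by 0.022 and -0.070 (adjusted p = 0.923 and 0.647), Col3a1 on a probe set under background. The other probe set of Col1a1 differed by 0.18.

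Col5a1 and Col5a2 encode chains of type V collagen, which sits in the core of type I fibrils and limits their width. Col5a2 read 6.86, 6.73 and 6.87 in SM and 7.23, 7.02 and 7.00 in NZB, and was called higher (0.26, SE 0.079, adjusted p = 0.0424). The call ended when any single mouse was left out (adjusted p = 0.0505 to 0.150, the highest without SM replicate 2), with quantile normalization or aligned medians (adjusted p = 0.0784 and 0.0770) and over all probe sets (adjusted p = 0.0575). Its other probe set, which lay under the background level, differed by -0.16, and the mean of both by 0.053. Col5a1 differed by 0.023 (SE 0.11, adjusted p = 0.906), and its 3 probe sets by -0.25 to 0.15.

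The collagen VI chains Col6a1, Col6a2 and Col6a3, which form beaded filaments around cells, and the fibril-associated Col14a1 did not pass the test. Their differences were -0.16, 0.12, -0.025 and -0.042, with adjusted p of 0.509, 0.259, 0.910 and 0.892. In all 4 genes SM replicate 2 was the lowest SM mouse. Col14a1 read 8.87, 8.25 and 8.36 in SM and 8.53, 8.15 and 8.67 in NZB, so the mice of either strain spanned more than the strains differed.

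**Figure D2:**
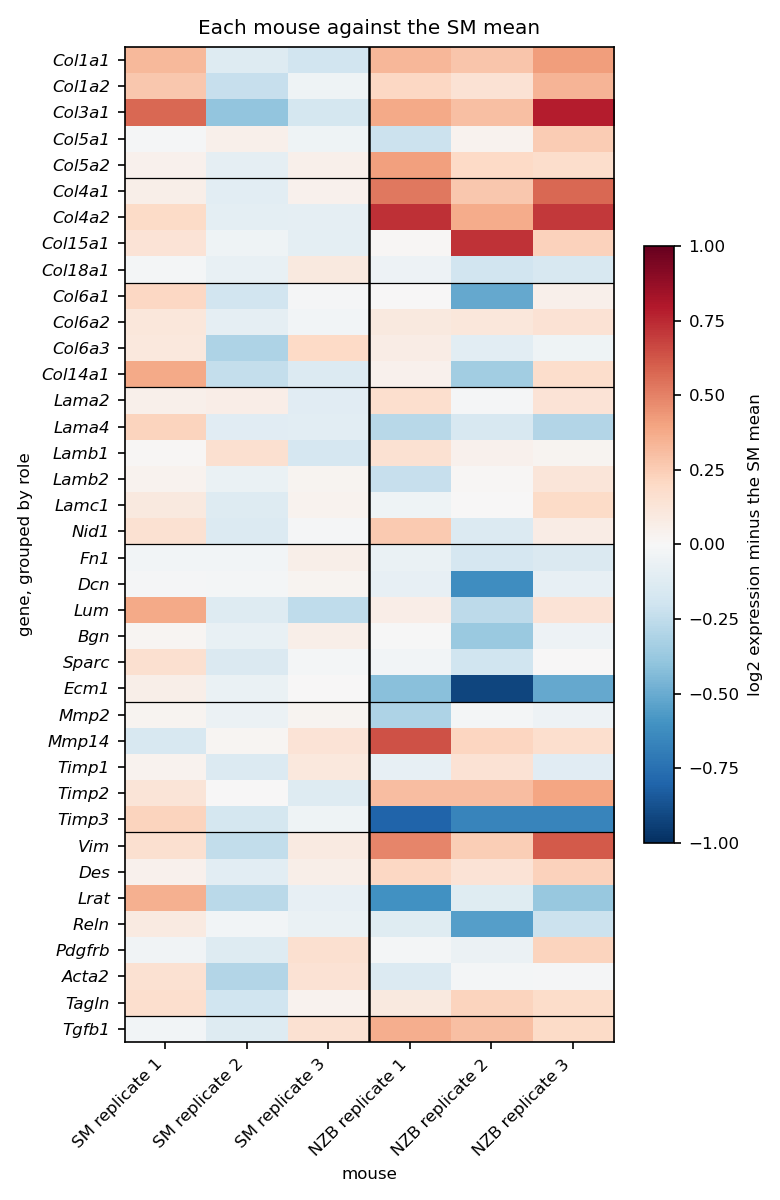
Log2 expression of each of the 38 genes (rows, grouped by role and separated by lines) in each of the 6 mice (columns), as the difference from the mean of the 3 SM mice, red for higher and blue for lower. SM replicate 2 is mostly blue and SM replicate 1 mostly red in the collagen rows, and Ecm1 and Timp3 are blue in all 3 NZB mice.

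The mice of a strain did not vary independently across these genes. SM replicate 1 was the highest of the SM mice in 23 of the 38 genes, or 60.5%, against 39.7% of all genes, and in 9 of the 13 collagen genes. SM replicate 2, the mouse with the low Xist reading, was the lowest SM mouse in 29 of the 38, or 76.3%, against 33.7% of all genes, and in 10 of the 13 collagens. Among the NZB mice, replicate 2 was the lowest in 22 of the 38, or 57.9%, against 33.8% of all genes. It was the lowest in all 6 of the adhesive glycoproteins and proteoglycans. The position of 1 mouse in each strain therefore touched many of these genes at the same time, and the 38 values are not 38 separate tests of the strain.

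The laminin chains and nidogen, which join type IV collagen into basement membrane, showed no gene past the threshold. Lama2, Lamb1, Lamb2, Lamc1 and Nid1 had differences of -0.032 to 0.097, and Lama4, the alpha chain of vessel walls, had -0.24 (SE 0.095, adjusted p = 0.105). Lama4 read 6.72, 6.38 and 6.39 in SM and 6.22, 6.33 and 6.21 in NZB, so that all NZB mice were lower by a small margin. Lamb1 lay near background, at 5.74 to 6.07 over the 6 mice, and 3 of its 4 probe sets lay under the background level. A dimmer probe set of Nid1 differed by 0.32 and was called over all probe sets (adjusted p = 0.0317), while the brightest one differed by 0.067 (adjusted p = 0.708).

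Ecm1 was the one adhesive glycoprotein or proteoglycan of the list that was called. It encodes a secreted protein of hepatocytes and stellate cells that is known to keep transforming growth factor beta in its latent form. Ecm1 read 10.43, 10.31 and 10.38 in SM and 9.95, 9.45 and 9.86 in NZB. All NZB mice were below all SM mice, NZB replicate 2 most, and the gene was 1.53-fold lower (-0.62, SE 0.12, adjusted p = 0.00571). It has 1 probe set and was also called in all 15 alternatives to the reported fit. It differed by -0.65 without SM replicate 2 (adjusted p = 0.0198) and by -0.47 without NZB replicate 2 (adjusted p = 0.00494).

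The other genes of this group did not pass the test and had differences below 0. Fn1, the fibronectin that hepatocytes secrete into plasma, read 13.40, 13.40 and 13.48 in SM and 13.36, 13.26 and 13.28 in NZB (-0.13, SE 0.062, adjusted p = 0.188). Its dimmer probe set differed by 0.30 and ranged from 8.02 to 9.69 within SM. Dcn, the collagen-binding proteoglycan decorin, read 11.17, 11.16 and 11.21 in SM and 11.09, 10.56 and 11.10 in NZB (-0.26, SE 0.13, adjusted p = 0.191), so that NZB replicate 2 carried most of the difference. Bgn, Sparc and Lum, which encode biglycan, osteonectin and lumican, differed by -0.14, -0.073 and -0.016 (adjusted p = 0.340, 0.618 and 0.958).

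The tissue inhibitors of metalloproteinases went in opposite directions. Timp3, the inhibitor that stays bound to matrix and also blocks ADAM proteases, had the largest difference of the 38 genes. It read 8.88, 8.49 and 8.62 in SM and 7.86, 8.00 and 8.00 in NZB, and was 1.63-fold lower (-0.70, SE 0.099, adjusted p = 0.00127). All 4 of its probe sets differed by less than 0, from -0.70 to -0.19, and 3 of them were called lower over all probe sets. Without SM replicate 2 the difference was -0.79 (adjusted p = 0.00195).

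Timp2, which inhibits Mmp2 and also helps Mmp14 to activate it, read 8.86, 8.73 and 8.60 in SM and 9.04, 9.03 and 9.12 in NZB. The groups did not overlap, and the gene was 1.26-fold higher (0.34, SE 0.077, adjusted p = 0.0137). All 6 of its probe sets differed by more than 0, from 0.072 to 0.37, and 3 were called higher. It differed by 0.34 without SM replicate 2 (adjusted p = 0.0489), and its call ended without NZB replicate 3 (0.31, adjusted p = 0.0597). Timp1, the inhibitor that rises in liver injury, lay near background in both strains, at 5.58 to 5.83 in SM and 5.60 to 5.86 in NZB (-0.017, adjusted p = 0.920).

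Neither metalloproteinase of the list passed the test. Mmp14, the membrane-bound collagenase, read 8.71, 8.89 and 9.01 in SM and 9.51, 9.09 and 9.04 in NZB (0.34, SE 0.13, adjusted p = 0.0852). It was called after quantile normalization (0.43, adjusted p = 0.0428). In the values as deposited, a dimmer probe set of Mmp14 was called over all probe sets (0.43, adjusted p = 0.0486). Mmp2, the gelatinase that stellate cells and fibroblasts make, read 6.93 to 7.01 in SM and 6.67 to 6.96 in NZB (-0.13, SE 0.084, adjusted p = 0.328).

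**Figure D3:**
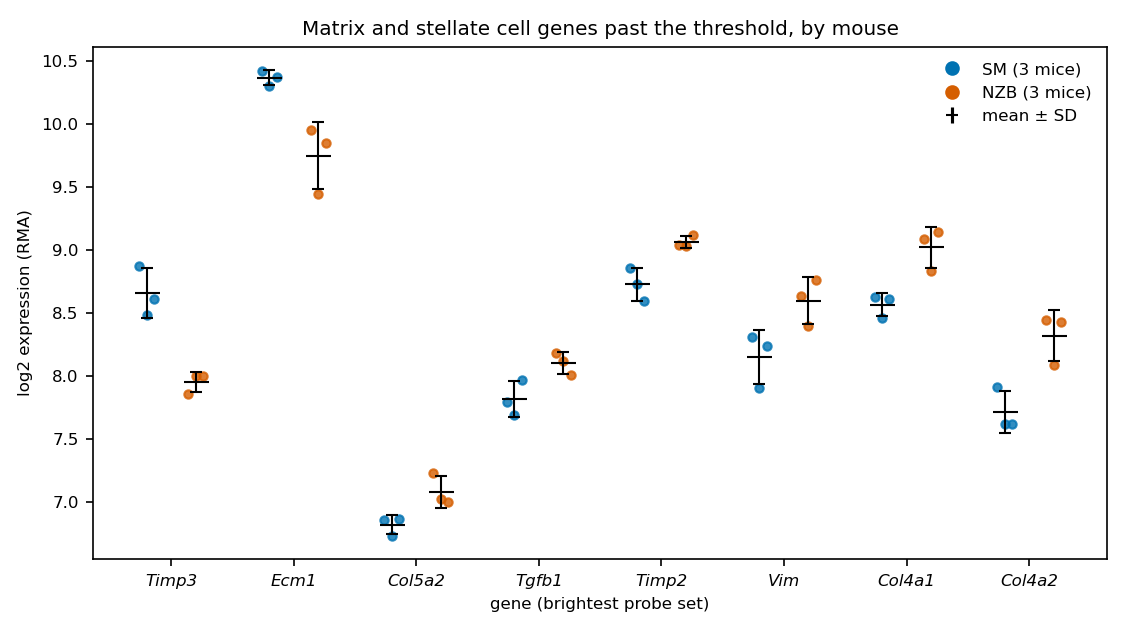
Log2 expression (vertical axis) of the 8 genes past the threshold in each SM mouse (blue) and each NZB mouse (orange), with the mean and SD of each strain as black bars, from the lowest to the highest difference. The groups overlap in none of the 8 genes. Heights compare mice within a gene, not genes with each other.

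Among stellate cell and contractile genes only Vim was called. It encodes vimentin, an intermediate filament of stellate cells, fibroblasts, endothelium and leukocytes alike. Vim read 8.31, 7.91 and 8.24 in SM and 8.64, 8.40 and 8.77 in NZB, and was 1.37-fold higher (0.45, SE 0.12, adjusted p = 0.0284). Its 3 probe sets differed by 0.45 to 0.62, and 2 of them were called. The call ended without SM replicate 2 (0.33, adjusted p = 0.0919), without NZB replicate 1 (0.43, adjusted p = 0.0807) and without NZB replicate 3 (0.37, adjusted p = 0.110).

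The more specific stellate cell genes did not pass the test. Lrat, the enzyme that esterifies retinol for storage, read 8.03, 7.40 and 7.59 in SM and 7.07, 7.56 and 7.30 in NZB (-0.37, SE 0.16, adjusted p = 0.145). Reln, the secreted glycoprotein reelin, which stellate cells make in liver, read 10.01, 9.89 and 9.85 in SM and 9.79, 9.36 and 9.70 in NZB (-0.30, SE 0.11, adjusted p = 0.0785). It was called without NZB replicate 1 (-0.38, adjusted p = 0.0443). Des, the muscle-type filament desmin, read 7.71, 7.57 and 7.73 in SM and 7.87, 7.81 and 7.90 in NZB (0.19, SE 0.067, adjusted p = 0.0743). The arrays of the strains overlapped for Lrat and did not for Reln and Des. Pdgfrb, the receptor that drives stellate cell growth, differed by 0.049 (SE 0.098, adjusted p = 0.766). The smooth muscle genes Acta2 and Tagln, which mark contractile myofibroblasts and vessel walls, differed by -0.057 (adjusted p = 0.762) and 0.17 (adjusted p = 0.247). In whole liver, a different number of cells of a type and a different amount of RNA per cell cannot be told apart.

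Tgfb1 encodes the growth factor that drives matrix production. It read 7.79, 7.69 and 7.97 in SM and 8.19, 8.12 and 8.01 in NZB, and the lowest NZB mouse lay just above the highest SM mouse. The difference was 1.22-fold (0.29, SE 0.084, adjusted p = 0.0384). The call ended without SM replicate 2 (0.22, adjusted p = 0.140), without SM replicate 1 (0.27, adjusted p = 0.0914), without each of the NZB mice (adjusted p = 0.0550 to 0.115) and with the array medians aligned (0.25, adjusted p = 0.0556). It also ended with the mean of its probe sets (0.17, adjusted p = 0.158) and over all probe sets (adjusted p = 0.0528).

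Over all probe sets rather than genes, 13 of the 83 were called, 9 higher and 4 lower. That is 15.7% of them, against 14.8% of all probe sets, with 10.8% higher against 6.09% and 4.82% lower against 8.69%. No gene had probe sets called in opposite directions, and 8 of the 28 genes with several probe sets had differences of both signs. The mean of 12 probe sets lay at or under background.

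**Figure D4:**
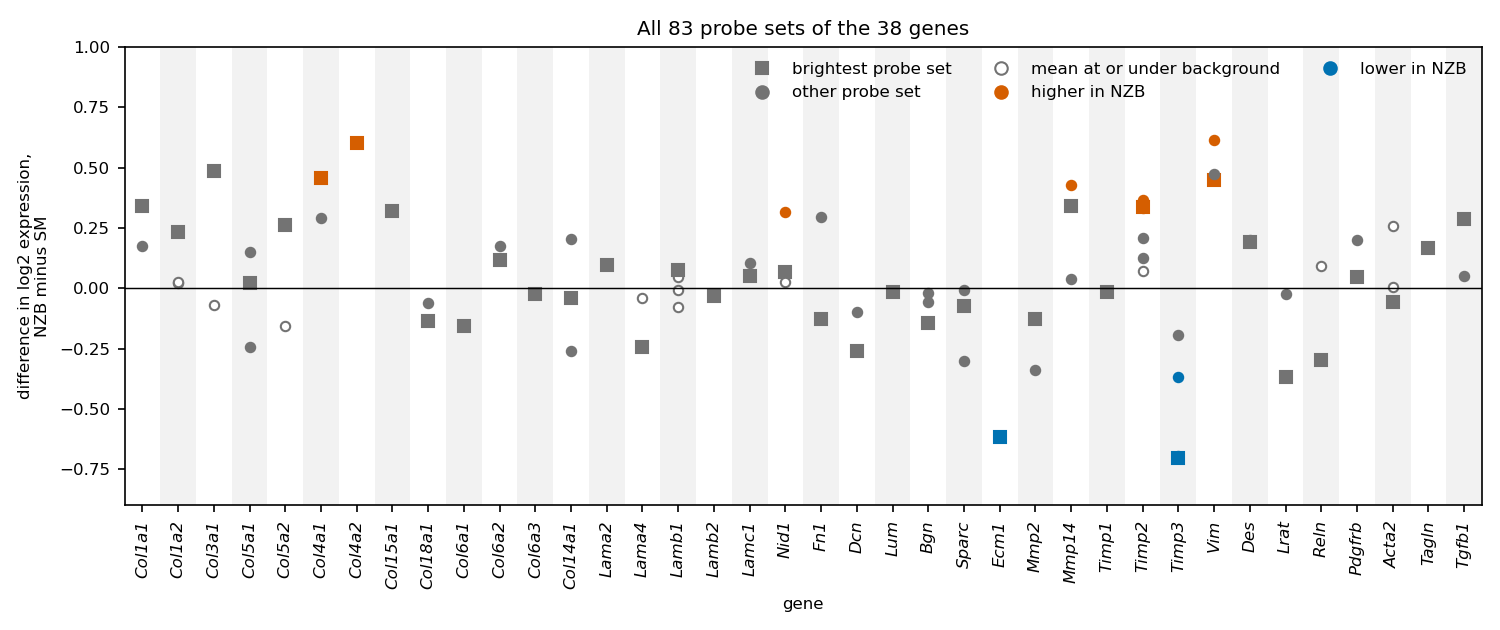
Difference in log2 expression (NZB minus SM, vertical axis) of all 83 probe sets of the 38 genes (horizontal axis). Squares are the brightest probe set of a gene, open symbols have a mean at or under background, and colour marks probe sets called in the test over all probe sets, which tests more features than that over genes. The 6 probe sets of Timp2 lie above 0 and the 4 of Timp3 below it.

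Leaving out SM replicate 2 left 5 of the 38 genes called, 3 higher (Col4a1, Col4a2 and Timp2) and 2 lower (Timp3 and Ecm1), which is 13.2% against 13.1% of all genes. Without SM replicates 1 and 3 in turn, 9 and 7 genes were called (23.7% and 18.4%, against 17.3% and 21.2% of all genes). Without NZB replicates 1, 2 and 3 in turn, 6, 6 and 4 were called (15.8%, 15.8% and 10.5%, against 16.8%, 14.8% and 13.1%). Timp3, Ecm1, Col4a1 and Col4a2 were called in each of these fits.

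Among the other genes of transforming growth factor beta signalling, 16 of 23 measured were called neither way, 6 were lower in NZB and 1 was higher, with a median difference of -0.13. Over all genes 12.6% were lower and 8.47% higher, with a median of 0.021, and the list itself was not tested. Ccn2, a matrix-associated protein that this pathway and stretch are known to induce, read 8.28, 8.08 and 8.15 in SM and 6.64, 6.69 and 6.83 in NZB. The groups lay far apart, and Ccn2 was 2.73-fold lower (-1.45, SE 0.077), more than any of the 38 genes. The receptor gene Tgfbr2 read 9.22, 9.16 and 9.00 in SM and 8.40, 8.47 and 8.26 in NZB, and was 1.68-fold lower (-0.75, SE 0.082). The other lower genes, named to complete the count after their values were seen, were the receptors Tgfbr1 (-0.45) and Tgfbr3 (-0.33) and the signal transducers Smad4 (-0.40) and Smad2 (-0.32). The same 6 were lower without SM replicate 2. With the mean of all probe sets of a gene, the receptors no longer passed (-0.17, -0.12 and -0.048 for Tgfbr2, Tgfbr1 and Tgfbr3), and 3 genes of the list were then lower. Ltbp2, which anchors latent growth factor to matrix, was the higher one, with all 6 arrays under the background level, and was not called without SM replicate 2.

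Among 21 measured genes that fold, trim and crosslink collagen, the test called 4 higher and 1 lower, with a median difference of -0.016. The shares over all genes were 8.47% higher and 12.6% lower, and no list was tested. The prolyl isomerase gene Ppib was 1.23-fold higher (0.29, SE 0.071), and Pcolce2, an enhancer of procollagen cleavage, differed by 0.33 with 4 of 6 arrays under background. Plod1, a lysyl hydroxylase of collagen, was 1.15-fold lower (-0.20, SE 0.059). Higher calls fell to 1 without SM replicate 2, NZB replicate 1 or NZB replicate 3 and to 2 without NZB replicate 2, and none was lower without any one mouse. The gene left without SM replicate 2 was Pcolce2, and Ppib was not called there. Of 24 other collagen chains, 1 was higher, Col25a1 (0.21, SE 0.064), and none was lower. Col25a1 was not called without SM replicate 2 (adjusted p = 0.127), where Col5a3 was. No chain of that list was called without SM replicate 1, SM replicate 3, NZB replicate 2 or NZB replicate 3, or with aligned medians.

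Of 32 other matrix proteins, 3 were higher and 2 were lower, where 8.47% of all genes were higher and 12.6% lower. The fibulin-type gene Efemp1 read 7.03, 6.87 and 6.68 in SM and 6.08, 5.09 and 5.90 in NZB (-1.17, SE 0.22), with NZB replicate 2 under background. Tgfbi, a matrix protein named for its induction by transforming growth factor beta, was 1.40-fold lower (-0.49, SE 0.095). Perlecan, Hspg2, another basement membrane component, was 1.21-fold higher (0.27, SE 0.057), and so was the microfibril gene Mfap2 by 1.25-fold (0.33, SE 0.075). Without SM replicate 2, 1 was higher and 4 were lower, and the higher ones numbered 1 without NZB replicate 3 and 5 without SM replicate 3. Of 22 other proteases and inhibitors, 2 were higher and none was lower: Reck, a membrane-anchored inhibitor of metalloproteinases, read 5.76, 5.69 and 5.81 in SM and 6.48, 6.34 and 6.24 in NZB (0.60, SE 0.075), and Mmp19 differed by 0.56 (SE 0.15). Without SM replicate 2 Reck alone was higher, and without SM replicate 3 the count was 1 too.

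Of 22 measured matrix receptors, 3 were higher, 2 were lower and 17 did not pass, where 8.47% of all genes were higher and 12.6% lower. Cd44, the hyaluronan receptor, read 6.04, 6.19 and 6.08 in SM and 7.19, 7.44 and 7.48 in NZB, and was 2.40-fold higher (1.26, SE 0.087). The laminin receptor chain Itga6 was 1.78-fold higher (0.83, SE 0.080). The heparan sulfate proteoglycan gene Sdc4 was 2.23-fold lower on its brighter probe set (-1.16, SE 0.091), but the mean of its 2 probe sets differed by -0.11. The collagen receptor chain Itga1 was lower on its brighter probe set (-0.43, SE 0.10) with a mean over its 2 probe sets of 0.050. Its call ended without SM replicate 2 (adjusted p = 0.0609), and 1 receptor was lower without SM replicate 1 or NZB replicate 1 as well. Of 5 other platelet-derived growth factor ligands and receptors, the ligand gene Pdgfc was higher (0.40, SE 0.064). No gene of that list was called with probe sets of suffixes _s_at, _x_at or _a_at left out.

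**Figure D5:**
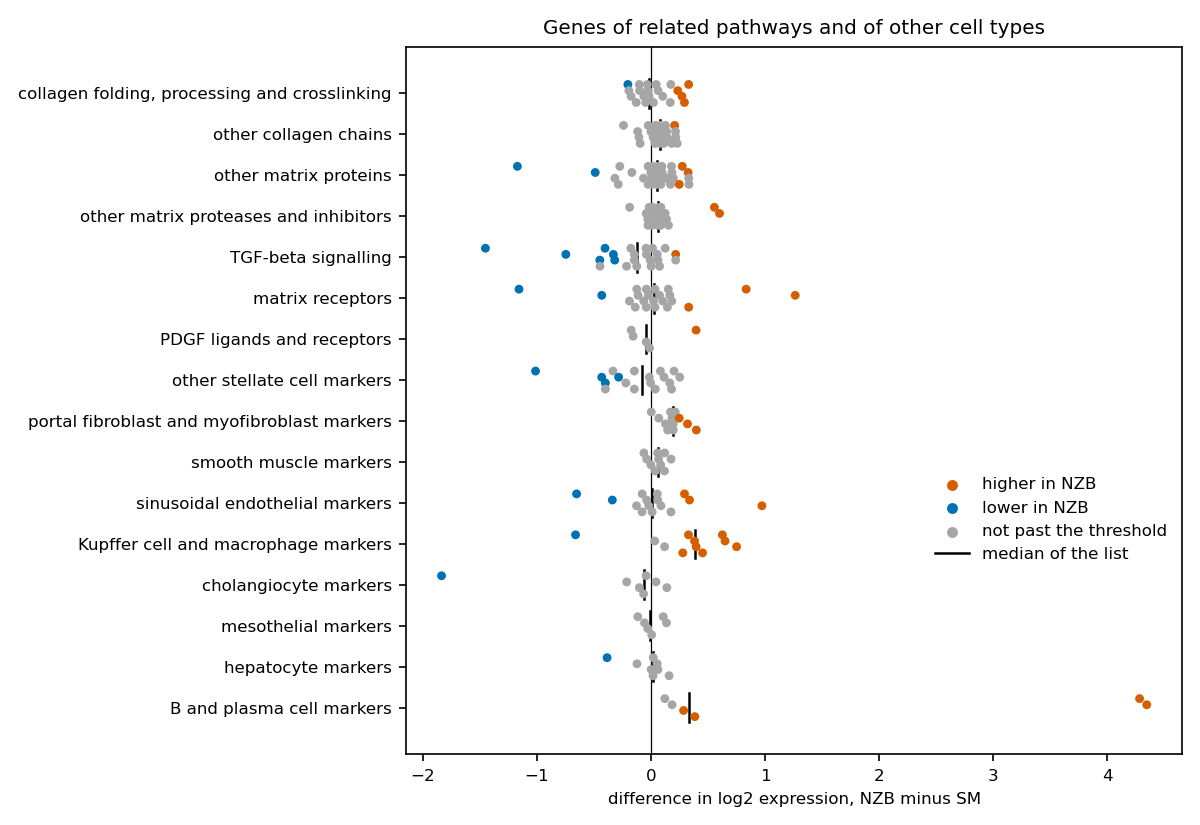
Difference in log2 expression (NZB minus SM, horizontal axis) of each measured gene of 7 pathway lists and 9 lists of cell type markers (rows), coloured where called over all genes, with a black line at the median of each list. Kupffer cell and macrophage markers lie mostly above 0 and the called genes of the TGF-beta list mostly below 0.

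Markers of the cells that make or share these genes did not move as one group. The test called 4 of 18 other stellate cell markers lower in NZB and none higher. For this and the lists below, the shares over all genes were 12.6% lower and 8.47% higher. The mean level of these 18 markers per mouse was 7.95 to 8.05 in SM and 7.76 to 7.96 in NZB. Rgs5, a regulator of G proteins in pericytes, was 2.02-fold lower (-1.01, SE 0.12), and the transcription factor gene Lhx2 was 1.35-fold lower (-0.43, SE 0.12). Without SM replicate 2 Rgs5 alone was lower, and the count was 1 without SM replicate 1, NZB replicate 2 or NZB replicate 3, 2 without SM replicate 3 and 6 without NZB replicate 1. Of 12 portal fibroblast and myofibroblast markers, 3 were higher, Thy1 (5 of 6 arrays under background), Entpd2 (0.32, SE 0.062) and Mfap4 (0.25, SE 0.062). Mfap4 was not called without SM replicate 2 (adjusted p = 0.0687), where Pi16 was. The mean of that list was 6.86 to 6.94 in SM and 7.06 to 7.14 in NZB, with Thy1 and Cd34 under background on average. None of 10 smooth muscle markers and none of 6 mesothelial markers passed the test. Krt23 was the one cholangiocyte marker of 7 that passed (-1.84, SE 0.15), and 2 others, Krt7 and Cftr, had a mean under background. Krt19 was also lower without SM replicate 2 (adjusted p = 0.0390).

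Of 15 sinusoidal endothelial markers, 3 were higher and 2 were lower, where 8.47% of all genes were higher and 12.6% lower. Without SM replicate 2, the counts were 2 higher and 2 lower. The means of that list were 9.00 to 9.06 in SM and 9.04 to 9.13 in NZB. Stab2, a scavenger receptor of these cells, was 1.96-fold higher (0.97, SE 0.14), and Lyve1, a hyaluronan receptor, was 1.57-fold lower (-0.65, SE 0.081). Of 11 Kupffer cell and macrophage markers, 8 were higher and 1 was lower, at 9.27 to 9.45 in SM and 9.54 to 9.79 in NZB, and 7 were higher without SM replicate 2. The count fell to 4 without NZB replicate 2 and to 5 without NZB replicate 3 or SM replicate 1. Cd5l, a secreted macrophage protein, was 1.68-fold higher (0.75, SE 0.092) and Adgre1, which encodes a surface receptor used to mark macrophages, was 1.57-fold higher (0.65, SE 0.067). Marco, a scavenger receptor, was 1.58-fold lower (-0.66, SE 0.14). Of 6 B and plasma cell markers, 4 were higher, and 3 without SM replicate 2. The means of that list were 6.58 to 6.66 in SM and 8.02 to 8.47 in NZB. Ighm (4.35, SE 0.21) and Jchain (4.28, SE 0.30), which encode the heavy chain and the joining chain of immunoglobulin M, had the largest differences. No marker of these 3 lists had a mean under background. The part of these cells and of portal fibroblasts in the higher Vim, Tgfb1, Cd44, Col4a1 and Col4a2 readings was not tested. Of 8 hepatocyte markers, the transcription factor gene Hnf4a was lower (-0.38, SE 0.084) and the others did not pass. Hnf4a was also lower without SM replicate 2. With the mean of all probe sets of a gene, no hepatocyte marker was lower and 1 was higher.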

How the data were processed

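Per the submitters' processing notes, the authors made the deposited values with RMA, which corrects background, normalizes arrays and summarizes probe sets. Neither its version nor its settings are stated in the sources used here. The deposited values were read as log2 because their maximum, 14.90, lies above the natural log limit of a 16-bit scanner, 11.1. Nothing further was normalized. RMA compresses differences near background, and strain sequence variants under single probes were not analysed here.

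A RefSeq table (GRCm38.p6) supplied current symbols, matched on Entrez ID. Of 45037 probe sets, 34945 had 1 gene, 932 several and 9160 none, and 34741 of the first matched that table. NZB was set against SM in a two-sided moderated test (lmFit and eBayes of limma 3.58.1, R 4.3.3) over all 18193 genes and separately over all probe sets, after the code was tested on simulated data. An exact permutation test of 1 gene was not used, since 3 mice per strain cannot give p below 0.1. The members and lists were chosen with earlier results of these data known, so no list was tested. The text names all members, and from each other list up to 2 called genes per direction with the largest differences. Others were chosen after their values were seen. Alternatives covered scaling, variance model, array weights, dim and cross-matching probe sets, probe set averaging, a replicate block and each mouse left out. Promoter windows are based on RefSeq (GRCm38.p6), and the set of windows used here covered 27 of the 38 genes.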

Additional observations from a re-analysis of the deposited data

How the results depend on the processing

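With 1 mouse left out at a time, 2 to 7 of the 38 genes were higher in NZB and 2 to 3 were lower, and the probe sets numbered 5 to 11 higher and 3 to 4 lower. The median difference of the 38 genes then ranged from -0.019 to 0.096, and from 0.0036 to 0.069 over the other alternatives. For scale, the median level of the 38 genes varied between mice of a strain with an SD of 0.13. That SD is a spread of levels and does not measure the spread of the median difference. With array weights 15 probe sets were higher. The other alternatives left 4 to 9 genes higher and 2 lower. They were quantile normalization, aligned array medians, trended and robust variances, array weights, 2 filters on dim probe sets, probe sets with suffixes _s_at, _x_at or _a_at left out, and the mean of all probe sets. The stricter dim filter, which kept 26 of the 38 genes, was chosen after seeing the data, and 5 were higher under it. Timp3, Ecm1, Col4a1 and Col4a2 were called under every alternative in which single genes were refitted, and no called difference changed sign. Of 411 differences that were not called in either fit, 40 changed sign.

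Over all genes the replicate numbers showed no pairing: deviations of same-numbered mice from their strain's mean correlated at 0.040, -0.072 and 0.050. Within the 38 genes, SM replicate 2 was the lowest SM mouse in 29 and NZB replicate 2 the lowest NZB mouse in 22. Whether same-numbered mice share an effect in the 38 genes was not tested. With the replicate number as a block, 5 genes were higher and 2 lower, and Tgfb1 lost its call.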
